A study of Homo sapiens with 3 samples.

Results

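The clustered protocadherin genes lie side by side on the long arm of chromosome 5, and their DNA methylation was read here CpG by CpG over 740 kb, from position 140160000 to 140900000 of GRCh37. Every CpG of that interval with at least 10 reads in each of the 3 libraries was taken, which left 6356 CpGs of 7408 seen there and of 2238764 compared over the genome. They fell into 269 windows of 1 kb, of which the 179 that held 5 or more CpGs were used, out of 113184 such windows in all. By position, 2314 CpGs belonged to the alpha cluster, 1892 to the beta cluster, 121 to the stretch between beta and gamma that carries SLC25A2 and TAF7, and 2029 to the gamma cluster. The dividing lines were the edges of the outermost beta and gamma promoters that could be placed, so the alpha part runs on to just before PCDHB1.

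Protocadherins are cell adhesion proteins of the cadherin superfamily, best known from neurons, where each cell uses its own small selection of them as a surface label. In the alpha and gamma clusters every variable gene is a large exon with a promoter of its own, and the chosen exon is spliced to constant exons shared by the whole cluster, while beta genes are single exons. Methylation of the promoter and of the exon behind it is the classical mark of a protocadherin gene that is not chosen, and the clusters are a known site of long-range hypermethylation in cancer.

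The cells were Hep3B, a hepatocellular carcinoma line. The libraries came from the parental cells and from the SOX4 knockout lines numbered 1 and 2 in the labels, which the same group had made in earlier work with CRISPR/Cas9 to remove SOX4, a transcription factor of the SOX family, with 1 library for each. The labels name no treatment beyond the parental or knockout state. The paper's methods, however, name puromycin in the culture medium of the knockout cells, and its effect was not tested. Whether each line grew from a single cell is not given in the sources used here. Genomic DNA was enriched with Illumina's EPIC capture probes, bisulfite-treated and sequenced, so that the share of reads keeping a C at a CpG is its methylation level in that library. A level between the extremes can mean that cells differ or that the alleles within a cell differ, and these cannot be told apart.

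Line 2 was read most deeply. The libraries held 96987706 to 133170621 CpG reads, and over the CpGs of the interval the median depth was 32 reads in parental cells, 30 in line 1 and 41 in line 2. The share of all reads that fell in the interval was 1.004 times the parental share in both knockout lines, so read dosage gave no sign of a copy lost or gained relative to parental cells. No measure of SOX4 itself was made from these files.

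Promoters were taken from RefSeq sequences of GRCh38.p14 (250 bases before a gene's start and 50 from it on) and located in the files by the spacing of their CpGs, since an annotation of GRCh37 was not used here. Of 52 such sequences of 47 cluster genes, 46 sequences of 41 genes were located, and 45 of them held the 3 or more compared CpGs needed for a level. PCDHA1, PCDHA2, PCDHA5, PCDHA9, PCDHB3 and PCDHGA4 were not located. Where RefSeq gives a gene several starts they are numbered along the strand and counted as separate promoters, although their sequences overlap.

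The sequences below are those that the results turn on, all from the forward strand of GRCh38.p14, which is the strand of the genes, with each CpG in capitals. The 4 whose level lay furthest below parental in their gene group, or changed most behind the start, are PCDHA12 (chr5:140875058-140875357), PCDHB14 (chr5:141223093-141223392), PCDHGA3 (chr5:141343579-141343878) and PCDHGC3 (chr5:141475716-141476015).
PCDHA12: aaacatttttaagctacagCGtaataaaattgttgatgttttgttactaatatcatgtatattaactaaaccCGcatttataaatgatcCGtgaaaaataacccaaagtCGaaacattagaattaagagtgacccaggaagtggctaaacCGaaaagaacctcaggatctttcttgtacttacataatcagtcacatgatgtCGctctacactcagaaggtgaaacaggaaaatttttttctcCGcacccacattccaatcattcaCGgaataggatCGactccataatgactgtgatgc
PCDHB14: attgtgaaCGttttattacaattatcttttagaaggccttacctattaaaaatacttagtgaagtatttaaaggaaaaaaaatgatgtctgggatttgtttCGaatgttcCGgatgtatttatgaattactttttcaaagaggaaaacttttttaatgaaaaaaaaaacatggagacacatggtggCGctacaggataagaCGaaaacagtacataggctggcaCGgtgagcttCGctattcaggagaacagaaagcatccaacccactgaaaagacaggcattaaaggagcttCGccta
PCDHGA3: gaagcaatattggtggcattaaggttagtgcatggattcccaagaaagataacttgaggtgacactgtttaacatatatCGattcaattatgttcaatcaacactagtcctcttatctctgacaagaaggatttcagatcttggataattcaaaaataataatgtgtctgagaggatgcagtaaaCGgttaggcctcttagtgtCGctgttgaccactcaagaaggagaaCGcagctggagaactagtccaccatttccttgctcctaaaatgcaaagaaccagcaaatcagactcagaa
PCDHGC3: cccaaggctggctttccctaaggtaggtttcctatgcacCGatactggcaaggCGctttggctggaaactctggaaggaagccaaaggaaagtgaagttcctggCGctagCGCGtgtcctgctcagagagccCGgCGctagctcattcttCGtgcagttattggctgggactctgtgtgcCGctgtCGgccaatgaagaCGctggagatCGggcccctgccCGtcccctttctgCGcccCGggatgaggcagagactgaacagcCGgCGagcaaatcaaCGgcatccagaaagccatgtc

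The other 4 form pairs from one gene group with opposite levels in all 3 libraries: PCDHGA9 (chr5:141402528-141402827) above 94% and PCDHGA10 (chr5:141412737-141413036) below 0.4%, then the second starts of PCDHGB6 (chr5:141407953-141408252) above 97% and of PCDHGB5 (chr5:141397878-141398177) below 0.3%.
PCDHGA9: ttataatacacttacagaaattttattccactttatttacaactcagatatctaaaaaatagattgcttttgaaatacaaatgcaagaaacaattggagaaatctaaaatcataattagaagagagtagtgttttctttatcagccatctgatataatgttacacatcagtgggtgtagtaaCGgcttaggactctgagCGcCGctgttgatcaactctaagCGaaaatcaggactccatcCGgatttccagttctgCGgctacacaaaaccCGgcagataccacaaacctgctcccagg
PCDHGA10: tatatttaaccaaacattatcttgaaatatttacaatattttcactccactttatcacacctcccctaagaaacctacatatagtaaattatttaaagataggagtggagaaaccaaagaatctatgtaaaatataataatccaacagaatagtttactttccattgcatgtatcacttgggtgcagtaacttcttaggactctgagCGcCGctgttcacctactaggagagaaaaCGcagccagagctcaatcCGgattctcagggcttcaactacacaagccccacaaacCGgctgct
PCDHGB6 start 2: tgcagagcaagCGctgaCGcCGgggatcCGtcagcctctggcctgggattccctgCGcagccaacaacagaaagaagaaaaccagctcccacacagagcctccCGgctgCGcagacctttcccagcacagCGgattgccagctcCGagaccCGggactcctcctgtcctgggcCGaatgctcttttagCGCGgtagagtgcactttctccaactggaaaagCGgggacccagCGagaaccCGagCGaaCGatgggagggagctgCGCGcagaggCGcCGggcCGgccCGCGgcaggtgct
PCDHGB5 start 2: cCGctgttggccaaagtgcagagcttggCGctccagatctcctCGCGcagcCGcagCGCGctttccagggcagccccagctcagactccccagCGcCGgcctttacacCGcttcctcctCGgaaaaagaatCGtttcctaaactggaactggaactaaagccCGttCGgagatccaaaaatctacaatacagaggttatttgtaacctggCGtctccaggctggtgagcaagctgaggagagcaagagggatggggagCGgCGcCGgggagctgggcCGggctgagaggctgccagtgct

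The letters CGCT, the core of the conserved sequence element of protocadherin promoters, stood on the gene strand in all 45 promoters, against 54.3% of the 35116 promoters in the RefSeq table and 40.7% of the 8358 with 4 to 12 CpGs. These letters alone do not show the whole element, which was not searched for. In 38 of the 45 (84.4%) a copy lay within the last 100 bases before the start, against 28.1% of all and 16% of those with 4 to 12 CpGs. The 28 promoters with a single copy had it at a median of 51 bases before the start. In PCDHGA3 and PCDHGA9 it reads CGctgttg in the sequences above. The 92 CpGs inside a copy on either strand averaged 46.6% methylation in parental cells, 40.4% in line 1 and 44.7% in line 2, and the 273 other promoter CpGs averaged 52.9%, 44.8% and 48.7%.

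In parental cells the clusters were heavily methylated. The median CpG of the interval was methylated in 95.1% of reads, against 28.9% for all CpGs compared, and 77.3% of its CpGs lay above 80% where 33.6% of all CpGs did. The excess was largest in CpG-dense DNA, which elsewhere is mostly unmethylated: of 43 windows of the interval with 50 or more CpGs, 40 (93.0%) averaged above 80% and 0 below 20%, whereas over the genome 7.43% of 5989 such windows averaged above 80% and 78.1% below 20%. With 20 or more CpGs the shares above 80% were 72.3% of 112 windows and 16.2% of 27317. The CpG-dense DNA of the clusters lay mostly behind the starts. Located alpha, beta and gamma A and B genes had 432, 542 and 478 compared CpGs from 1500 to 2000 bases after the start. In the 500 bases before it they had 41, 87 and 121. The genome windows were not matched for their place relative to a start.

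The clusters were not alike. The alpha cluster, with a median parental level of 90.0%, had 60.8% of its CpGs above 80% and 27.0% between 20% and 80%. In beta 87.8% of CpGs lay above 80% and 7.35% between, and in gamma 88.8% and 4.68%. By windows, 15 of 55 in alpha averaged above 80%, 40 of 54 in beta and 57 of 65 in gamma, while 32, 12 and 3 lay between. Intermediate methylation was thus the commonest state of alpha windows and rare in gamma, whose windows were either close to full or, at 5 places, close to empty.

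Mean levels were lower in both knockout lines than in parental cells in every cluster. Over the interval the mean was 82.2% in parental cells, 76.2% in line 1 and 78.5% in line 2, a knockout mean of 77.4% ± 1.63 (SD, n = 2). Alpha went from 73.5% to 64.4% and 67.5%, beta from 88.4% to 82.6% and 85.1%, and gamma from 88.5% to 85.9% and 87.1%. The knockout means were 66.0% ± 2.19, 83.8% ± 1.75 and 86.5% ± 0.81 (SD, n = 2).

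The difference of line 1 from parental was -9.07 percentage points in alpha, -5.78 in beta and -2.58 in gamma, and that of line 2 was -5.96, -3.30 and -1.44. Line 1 differed from line 2 by -3.10, -2.48 and -1.14 points, so in each cluster the nearer line stood further from parental than from its fellow line. All CpGs compared moved the same way, from a mean of 42.7% to 38.7% and 40.6%. No test was made of these means, because the parental group has 1 library.

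CpG by CpG, 402 of the 6356 (6.32%) were lower in line 1 by 25 points or more at an adjusted p under 0.05 (2-sided Fisher exact test on reads, Benjamini-Hochberg over all 2238764 CpGs), where 4.46% of all CpGs were. In line 2 there were 88 (1.38%) against 0.713%, and 71 (1.12%) were lower in both lines against 0.6%. Line 1 was below line 2 at 100 CpGs (1.57% against 1.07%) and above it at 13 (background 0.184%). With every CpG thinned to the depth of its shallowest library, 53 CpGs were lower in line 2 (0.834% against 0.328% of all CpGs), 46 in both lines (0.724% against 0.289%) and 58 in line 1 than in line 2 (0.913% against 0.572%), while 346 were lower in line 1 than in parental cells (5.44% against 3.51%). These tests compare libraries, and the count between the knockout lines exceeded that between line 2 and parental.

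Falls were commonest in alpha. There 219 CpGs (9.46%) were lower in line 1 and 48 (2.07%) in line 2, with 34 of 2314 in both. In beta the counts were 118 (6.24%), 24 (1.27%) and 22 of 1892, and in gamma 59 (2.91%), 14 (0.690%) and 14 of 2029. Over all CpGs the shares were 4.46%, 0.713% and 0.6%. The gamma share was below that background in line 1 and near it in line 2, and its 14 calls of line 2 were all among the calls of line 1. Of the gamma calls, 39 in line 1 and 10 in line 2 lay at the 83 CpGs around the PCDHGC3 start, described below.

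The counts were also read within classes of the parental level. Among CpGs above 80% in parental cells, 4.72% of 4916 in the interval fell in line 1, near the 5.48% of all 751319 such CpGs, with 8.74% in alpha, 4.70% in beta and 1.55% in gamma. Among those between 20% and 80%, 19.4% of 878 fell, against 13.4% of 437048, and the shares were 15.4% of 624 in alpha, 28.8% of 139 in beta and 32.6% of 95 in gamma. Most of the gamma CpGs that fell in that class lay close together behind the PCDHGC3 start, so the gamma share is largely that of a single locus. Read against starting level, the interval thus stood above the background among its intermediate CpGs and slightly below it among its full ones. In line 2 the corresponding shares of the interval were 1.24% and 3.08%, against 1.15% and 1.67% of all CpGs.

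Line 2 lay between the other libraries in 118 of the 179 windows of 1 kb (65.9%), where it did in 52.6% of all windows. In line 1, 10 of 179 windows (5.59%) lay 25 points or more below parental, against 4.15% of all windows. In line 2 only 1 window did (background 0.628%), and 0 were lower in both lines by that much (background 0.551%). Line 1 was that far below line 2 in 2 windows (0.786%). By direction alone, 139 of the 179 windows (77.7%) were lower in both knockout lines and 15 higher in both, while 55.3% of all windows were lower in both. The shares of all windows in this paragraph were not matched for parental level. Of all windows, 31.2% averaged below 20% in parental cells, with little room to fall, against 9.50% of the interval's windows.

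No window of the interval rose by 25 points in line 1 (background 0.416%), in line 2 (0.0901%), in both (0.068%) or in line 1 against line 2 (0.116%). The largest rises were 10.5 points in line 1 and 6.45 in line 2.

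The windows furthest below parental by the smaller of the differences of line 1 and line 2 lay in all 3 clusters and between them. At 140706001 to 140707000, beyond TAF7 toward gamma, the level was 91.2% in parental cells, 67.4% in line 1 and 66.1% in line 2. This window of 6 CpGs was the one that passed 25 points in line 2, by little (-25.1 points), and with 20 reads required at each CpG no window passed in line 2. At 140620001, between PCDHB14 and PCDHB15, the levels were 93.2%, 67.8% and 73.5%. The other 3 of the 5 hold the PCDHB14 and PCDHA12 promoters and the DNA behind the PCDHGC3 start, described below. At 140189001, a window of 6 CpGs that ends 3347 bases after the PCDHA4 start went from 39.6% to 8.64% and 21.0%.

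The 5 windows furthest above parental by the same measure moved little. The first, at 140793001 behind the PCDHGA10 start, held 12.6% in parental cells, 23.0% in line 1 and 16.7% in line 2. The second, at 140557001, holds the PCDHB8 promoter. All 5 differences were below the 25 points called.

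Promoters split into empty, intermediate and full ones. Of the 45, 18 (40.0%) lay below 20% in parental cells, 12 between 20% and 80% and 15 (33.3%) above 80%, with a median of 50.1%. Other located promoters of chromosome 5 were mostly empty, with 78.6% of 821 below 20% and 9.99% above 80%. Many of those are richer in CpGs, however, and the 152 with 4 to 12 CpGs had 34.2% below 20% and 31.6% above 80%, close to the 38.2% and 32.4% of the 34 protocadherin promoters of that density. Above 12 CpGs, 4 of 11 protocadherin promoters (36.4%) were above 80%, against 5.08% of 669 others. The 4 are the overlapping starts of PCDHGB6 and of PCDHGC4, which share CpGs, so they are not 4 separate places.

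Empty promoters lay in all 3 clusters. In alpha PCDHA8 held 0.543% in parental cells, 1.79% in line 1 and 4.13% in line 2 over 4 CpGs. In beta PCDHB2 held 0.350%, 0% and 0.303% over 11 CpGs. In gamma PCDHGA1, PCDHGA10 and both starts of PCDHGB1, PCDHGB4 and PCDHGB5 stayed at or below 5.23% in all 3 libraries. TAF7, a subunit of the general transcription factor TFIID that lies between the clusters, had 0% over 25 CpGs in each library. By their means these promoters were empty in the knockout lines as in parental cells. A single CpG of the first PCDHGB1 start, at 140729552, was nevertheless called higher in line 1. It was methylated in 5 of 48 parental reads, 18 of 43 in line 1 and 9 of 56 in line 2 (Fisher exact test, adjusted p = 0.0152 for line 1).

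Low promoters with some methylation were more varied. PCDHA10 held 15.9% in parental cells, 4.70% in line 1 and 11.3% in line 2, and PCDHA7 held 11.6%, 7.35% and 10.7%. In beta PCDHB7 held 12.9%, 6.72% and 10.3%, PCDHB10 5.20%, 1% and 2.78%, and PCDHB1, the gene that opens the cluster, 8.23%, 2.37% and 3.13%. These 5 and PCDHB16 lay below parental in both knockout lines, whereas PCDHGA2 lay above it in both and PCDHGC3 in line 2 alone, as described further on. Of all 18 promoters below 20% in parental cells, 9 were lower in both lines, and none of their differences reached 25 points.

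Full promoters were a gamma feature in count: 13 of the 15 belonged to gamma genes and the other 2 to PCDHB4 and PCDHB15. PCDHGA6 held 100% in parental cells over 5 CpGs, 93.2% in line 1 and 92.8% in line 2. PCDHB4 held 97.1%, 94.97% and 94.93%, and the second start of PCDHGC4 98.6%, 95.8% and 95.3% over 23 CpGs. PCDHGB2, PCDHGA5, PCDHGB3 and PCDHGA8 stayed between 93.5% and 96.4% in all 3 libraries, while PCDHGA7 held 96.0%, 87.8% and 96.2% and the difference of PCDHGB7 from parental was -2.43 points in line 1 and -8.24 in line 2. PCDHGB6 stood at 95.5% and 97.1% at its starts and was slightly higher in both knockout lines. The gamma full promoters lay above 82% in all 3 libraries, the lowest being PCDHGA11 with 92.8%, 82.4% and 86.2%.

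Full and empty promoters lay interspersed along gamma, partly in runs. PCDHGB2, PCDHGA5, PCDHGB3, PCDHGA6 and PCDHGA7 followed one another and were all full. PCDHGA8 (94.2% in parental cells) was followed by PCDHGB5 (0.116% and 0.251%), PCDHGA9 (94.9%), PCDHGB6 and then PCDHGA10 (0.278%), with no change of state in either knockout line. Promoters of one gene group could differ in level. PCDHGA9 and PCDHGA10 share 54.3% of their bases and stood at 94.9% and 0.278%, where pairs of gamma A shared 38.2% to 56.6%. In alpha PCDHA6 and PCDHA8 share 60.4% and stood at 70.7% and 0.543%. How much unrelated promoters share was not measured. The closest pairs had similar levels in parental cells. PCDHB8 and PCDHB13 share 71.3% and stood at 48.6% and 54.6% in parental cells and at 52.3% and 51.5% in line 2. In line 1, however, they stood apart, at 52.4% and 24.9%. The second starts of PCDHGB4 and PCDHGB5 share 94.7% and were both empty, although reads of 2 promoters so alike could have been assigned to either.

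The lower levels were mostly at intermediate promoters. In line 1, 7 of 45 (15.6%) were lower by 25 points or more, against 3.46% of all 866 located promoters of the chromosome, and 6 of the 7 started between 20% and 80%. That made 6 of 12 intermediate protocadherin promoters, where 17 of 94 other intermediate promoters (18.1%) were as far below parental. Among promoters with 4 to 12 CpGs the shares were 7 of 34 (20.6%) against 11.8% of 152 others, and among the intermediate ones of that density 6 of 10 against 13 of 52 (25%). The medians of the difference of line 1 from parental in those sets were -23.4 and -12.5 points. Line 2 had 0 promoters that low (background 0.577%), and so had both lines together (0.462%), but its median difference over the 12 was -14.5 points, against -5.90 over the other 94. Of the 12, 11 were lower in both lines by any size, and of the other 94 so were 71. No protocadherin promoter was higher by 25 points in line 1 (background 0.231%), in line 2 (0%) or in both (0%).

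In alpha the 3 promoters lower by that much in line 1 were PCDHA4 (45.6% in parental cells, 20.3% in line 1, 26.3% in line 2), PCDHA11 (44.0%, 18.2%, 28.2%) and PCDHA12. PCDHA6 went from 70.7% to 51.2% and 55.6%. Line 2 lay between the other libraries in each of the 4. PCDHA12 held 56.1% in parental cells, 25.8% in line 1 and 35.8% in line 2 over its 9 CpGs, of which 6 passed an adjusted p of 0.05 in line 1 and 1 in line 2 (Fisher exact test).

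The 9 CpGs of PCDHA12 did not move alike. The CpG 160 bases before the start was methylated in 25 of 43 parental reads, 1 of 45 in line 1 and 14 of 54 in line 2 (Fisher exact test, adjusted p = 3.05e-07 for line 1). The one 230 bases before it kept 25 of 28, 39 of 39 and 39 of 44. The CpG of the CGCT motif, 47 bases before the start, held 28 of 38, 19 of 37 and 38 of 48 and did not pass (Fisher exact test, adjusted p = 0.431 for line 1). The 6 CpGs that passed had parental levels from 23.8% to 88.2%, so the fall was not tied to one starting level.

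PCDHAC1 and PCDHAC2, the C-type alpha genes, which neurons express without choice, were intermediate as well. PCDHAC2 held 37.2% in parental cells, 21.7% in line 1 and 36.6% in line 2. PCDHAC1 held 68.5%, 62.5% and 55.2%, but on 4 of its CpGs only, with 10 to 12 reads each in line 1. Neither had a CpG past the adjusted threshold in either line.

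In beta the largest difference was at PCDHB14, from 54.6% in parental cells to 13.4% in line 1 and 32.8% in line 2 over 7 CpGs. All 7 were lower in both knockout lines, and 6 passed an adjusted p of 0.05 in line 1, the CpG 63 bases before the start with 19 of 36, 2 of 40 and 10 of 45 methylated reads (Fisher exact test, adjusted p = 0.000224). None of the 7 passed in line 2, where the smallest adjusted p was 0.0705 and 3 had an unadjusted p under 0.05. PCDHB5 went from 77.0% in parental cells to 55.4% in line 1 and 63.2% in line 2. PCDHB15 went from 90.2% to 57.8% in line 1 and 75.7% in line 2, the only full promoter that moved by over 25 points.

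PCDHB13, the next gene before PCDHB14, held 54.6%, 24.9% and 51.5%: line 1 had a difference from parental of -29.7 points, and line 2 differed by -3.09. It was the 1 promoter of the clusters 25 points lower in line 1 than in line 2 (background 0.462%), and 0 were higher (0.346%). With only 5 reads required at each CpG, 0 promoters were that far below line 2 in line 1. PCDHB16 went from 18.6% to 0.202% in line 1 and 9.89% in line 2, and PCDHB9 from 50.1% to 30.8% and 43.9%. PCDHB8, whose promoter shares 71.3% of its bases with that of PCDHB13, was the exception among beta promoters by its mean, at 48.6%, 52.4% and 52.3%. Its CpGs did not move alike. The one 157 bases before the start held 33 of 60 methylated parental reads, 17 of 64 in line 1 and 41 of 99 in line 2. It alone passed, in line 1 (Fisher exact test, adjusted p = 0.0325), while other CpGs of PCDHB8 were higher in both lines without passing. In the other 11 beta promoters both knockout lines were below parental.

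In gamma the single promoter more than 25 points lower in line 1 was PCDHGA3, which has 4 CpGs in the sequence above. It held 77.6% in parental cells, 31.3% in line 1 and 52.7% in line 2, the largest difference below parental of any protocadherin promoter in each line. All 4 CpGs passed an adjusted p of 0.05 in line 1 and 3 passed in line 2. At 170 bases before the start 36 of 57 parental reads were methylated, 0 of 65 in line 1 and 16 of 72 in line 2. At 45 bases before it, in the CGCT motif, the counts were 131 of 142, 61 of 136 and 112 of 148 (Fisher exact test, adjusted p = 1.3e-15 for line 1). The lines also differed from each other at 3 of the 4 CpGs. PCDHGA2, the next promoter toward alpha, was 11.3% in parental cells and 20.8% and 20.2% in the knockout lines, with no CpG past the adjusted threshold.

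Around the starts, methylation was lower than deep in the exons. Averaged over genes in parental cells, the 500 bases before the start held 32.6% in alpha, 46.8% in beta and 61.6% in gamma A and B genes, and the bases from 1500 to 2000 after it 91.0%, 93.5% and 96.2%. In gamma the genes ranged from 0.0791% to 100% before the start, yet from 93.2% to 98.6% at 1500 to 2000 bases. The climb was not even in alpha, where the first 500 bases after the start held 65.4% and the next 500 held 43.6%. Empty and full gamma promoters were followed by DNA that was full alike. The knockout lines kept this shape. Before the start their differences from parental were -15.1 points in line 1 and -8.77 in line 2 in alpha, -15.6 and -7.03 in beta, and -2.81 and -1.76 in gamma A and B.

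Where the promoter was empty the first parental CpG above 80% lay some way behind the start. Few or no CpGs were compared in many of the gaps before it, so the border itself was often not located. At PCDHB2 the last parental CpG below 20% stood 152 bases after the start and the next one compared, at 1401, was above 80%. Counted from the first start of each gene, the step lay between 215 and 949 bases at PCDHGB4 and between 292 and 1643 at PCDHGB1, each with 0 compared CpGs in between. PCDHGA10 showed the step itself. Its 37 CpGs from 300 bases before the start to 700 after averaged 0.839%, 3.86% and 0.913%, the 6 CpGs between 800 and 900 averaged 44.9% in parental cells, 73.8% in line 1 and 61.0% in line 2, and the last 2, up to 1800, 100%, 97.1% and 92.2%.

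PCDHGC3 is a C-type gamma gene, and the window behind its start, at 140856001, stood furthest below parental in line 1 of all 179 windows, from 90.0% in parental cells to 45.2%, with 69.5% in line 2. The 18 CpGs before its start averaged 17.1% in parental cells, 3.17% in line 1 and 17.1% in line 2. The 30 in the first 500 bases after it averaged 40.0%, 0.741% and 19.3%, and the 32 from 500 to 1000 bases 90.2%, 46.6% and 70.5%. In parental cells methylation thus climbed across the exon, and in line 1 it stayed near 0 for 600 bases and then rose.

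Of the 83 CpGs compared there, from 351 bases before the start to 2340 after, 39 were lower in line 1 than in parental cells, 10 in line 2, and 22 were lower in line 1 than in line 2. In the first 500 bases 20 of 30 were called in line 1 and 2 in line 2. At 341 bases 34 of 53 parental reads were methylated, 0 of 65 in line 1 and 7 of 37 in line 2 (Fisher exact test, adjusted p = 1.68e-13 and 0.00698). At 608 bases the counts were 38 of 40, 2 of 42 and 28 of 50 (Fisher exact test, adjusted p = 2.57e-15 and 0.00573). Line 2 lay between parental and line 1 at 26 of the 30 CpGs of the first 500 bases and 23 of the 32 of the next 500, and the knockout lines differed from each other at these CpGs too (Fisher exact test, adjusted p = 0.0372 and 4.59e-05).

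The border in line 1 was not smooth. At 693 bases after the start 50 of 54 reads were methylated, at 708 and 710 bases 8 of 53 and 7 of 53, at 730 bases 49 of 50, and at 761 bases 14 of 46. Line 2 dipped at the same CpGs, with 64 of 68, then 40 of 70 and 39 of 68, then 63 of 65 and 41 of 53. From 795 bases on, the levels in every library were 86.4% or higher as far as 873 bases. Reads are shorter than this stretch and CpGs a few bases apart were read by the same fragments, so these CpGs are not independent of each other.

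PCDHGC4 was the other gamma C gene with a located promoter, and PCDHGC5 was not analysed here. Both starts of PCDHGC4 were full, at 98.4% and 98.6% in parental cells, 95.9% and 95.8% in line 1 and 93.2% and 95.3% in line 2. Over the 300 bases of the promoter itself PCDHGC3 held 12.3% in parental cells, 0.335% in line 1 and 13.1% in line 2, so the stretch that was lower in both lines lay behind the start and not before it.

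Rises were few. In line 1, 25 CpGs of the interval (0.393%) were higher by 25 points or more, below the 0.599% of all CpGs. Of the 25, 20 lay in alpha, where their share of 0.864% was above that background. The shares were 0.0529% in beta and 0.197% in gamma. In line 2, 0 were (background 0.0831%), and 0 were higher in both lines (0.0581%).

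Several rises lay close behind starts. Behind the PCDHA6 start, the CpG at 606 bases was methylated in 14 of 50 parental reads, 42 of 43 in line 1 and 31 of 51 in line 2 (Fisher exact test, adjusted p = 1.56e-10 for line 1). At 600 bases the counts were 2 of 54, 23 of 49 and 14 of 55. The promoter of PCDHA6, by contrast, was lower in both lines. At 237 bases behind the PCDHA8 start, whose promoter is empty, the counts were 23 of 131, 75 of 149 and 47 of 167 (Fisher exact test, adjusted p = 1.23e-06 for line 1). Single CpGs of alpha therefore moved in both directions within short distances.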

How the data were processed

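The deposited files of TruSeq Methyl Capture EPIC bisulfite sequencing give, for each cytosine of a CpG, read counts that the authors did not normalise (total, in CpG context and methylated), and the methylation level as a fraction that the authors computed from them, equal to methylated over context reads at every row. Per the submitters' processing notes the build is GRCh 37 (hg 19). The aligner, the caller and duplicate removal are not given in the sources used here.

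Reads of both strands were summed per CpG, numbered by its forward-strand G, and 10 reads per library were required. Each pair of libraries was tested by a 2-sided Fisher exact test with Benjamini-Hochberg adjustment over all 2238764 CpGs, called at an adjusted p of 0.05 and 25 percentage points. Windows (1 kb, 5 CpGs or more) and promoters (3 CpGs or more) were called at 25 points without a test. Intervals are exact binomial 95% intervals and cover counting error only, since PCR copies are not independent molecules. Complementary-strand reads made up 86.7% to 87.0% of each library.

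Promoters were located by exact CpG spacing: 42 of the 46 by a unique spacing alone and 4 between located neighbours, 42 with every CpG found, and 1 of the 958 located on the chromosome out of table order. Named were, in each gene group, the promoters of lowest and highest parental level and of largest fall and rise by the smaller of both differences, with their CpGs, and the 5 windows of largest fall and rise. All other named promoters, CpGs and windows were chosen after their values were seen, as were the PCDHGC3, PCDHGA10 and motif descriptions. The genes and lists were chosen with earlier results of these data known. Alternatives covered the read minimum (5 or 20), 50 points, thinned reads, read-weighted means, windows shifted by 500 bp and each knockout line left out. The Fisher test was tested on simulated data. The work ran in Python 3.11.15 with scipy 1.17.1, numba 0.67.0, Biopython 1.88, pandas 2.3.3 and numpy 2.4.6.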

Additional observations from a re-analysis of the deposited data

How the results depend on the processing

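Over 227 alternative values for 47 results of the clusters, 187 stayed within 1.5 times the count or 1 SD between the knockout lines, 40 moved by more, and 0 changed sign, and all 20 alternative values of the cluster means stayed below parental. With 50 points required, the CpGs lower than parental numbered 159 in line 1, 11 in line 2 and 6 in both, those lower in line 1 than in line 2 were 18, those higher in line 1 were 4 against parental and 1 against line 2, and 0 windows or promoters were left in line 1, in line 2 or between the lines. With every CpG thinned to its smallest depth, 53 CpGs were lower in line 2, 46 in both lines and 58 in line 1 than in line 2. The windows lower in line 2 numbered 3 with 5 reads required, 0 with 20 reads and 2 with read-weighted means, and those lower in both lines 2 with 5 reads, 1 with read-weighted means and 1 with windows shifted by 500 bp. That shift left 1 window lower in line 1 than in line 2, and 5 reads left 0 promoters. The gamma mean difference was -2.90 points when weighted by reads. With either knockout line left out, the CpGs lower in the remaining line ranged from 88 to 402, those higher from 0 to 25, the windows lower from 1 to 10 and the promoters lower from 0 to 7, the smaller number being line 2 and the larger line 1 each time. No paired analysis was possible because only 1 library was made from parental cells.

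The promoters were located by CpG spacing and not by an annotation of the files' build. Medians of 30 to 41 reads per CpG leave wide intervals at single CpGs, so a CpG that did not pass in line 2 is not shown to have kept its level. Each knockout line is 1 library set against the same parental library, and what sets the lines apart from parental cells besides SOX4 was not tested.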

Other observations

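Outside the clusters on the same chromosome, PCDH1, a protocadherin gene that stands apart from them, had a located promoter of 5 CpGs. Its methylation level was 24.7% in parental cells, 24.3% in line 1 and 22.1% in line 2, and the largest difference from parental was -2.56 points.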
